A study of Homo sapiens with 6 samples.

Results

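The MYC locus on the long arm of chromosome 8 was taken as the stretch from the start of TRIB1 to 1 Mb past the end of PVT1, which is chr8:125430358-129187101 in hg38 with the gene models of GENCODE release 44. It holds 3.76 Mb, or 2.60% of the sequenced bases of chromosome 8. Its named members were MYC, PVT1, POU5F1B and TRIB1, and 47 annotated genes started inside it. An open region belonged to it when at least 1 bp overlapped. After the lists of all libraries were merged, 121 of 49527 open regions lay in the stretch, with a further 2518 on the rest of chromosome 8. These members were chosen by position and not by any measured value.

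The assay was ATAC-seq, in which a transposase cuts and tags DNA that is not covered by nucleosomes. The cells were MCF10A, an established non-tumorigenic line of human mammary epithelium, with about 50000 cells per treatment. All cells were first kept for 30 min in a buffered salt solution and then for 30 min with 50 µM TPA, a membrane-permeant chelator that lowers labile Zn2+, with 30 µM ZnCl2, which raises it, or with no addition (Ctrl). Each condition had 2 libraries, and the study calls them biological replicates in one place and technical replicates in another, so the P-values measure only the spread between these libraries.

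MYC encodes a basic helix-loop-helix transcription factor that pairs with MAX and binds E-box sequences in genes for growth and division. Its promoter is controlled by enhancers that lie far away on both sides in a stretch with few protein-coding genes, and many of those enhancers act in 1 tissue and not in another. PVT1 is a long non-coding RNA gene whose body carries enhancers and whose promoter can compete with that of MYC for them. TRIB1 encodes a pseudokinase scaffold of the tribbles family that helps to bring target proteins to the COP1 ubiquitin ligase. POU5F1B is a retrocopy of the pluripotency gene POU5F1. A gain of 8q24 is known in MCF10A cells. The lists hold calls and no read counts, so the number of copies could not be measured, and copy number and accessibility cannot be told apart in any comparison of the stretch with other sequence.

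Each library came as 1 list of open regions with a whole-number score per region, and the lists held between 18887 (ZnCl2 replicate 2) and 44641 (Ctrl replicate 2) regions on the assembled chromosomes. Scores of separate lists need not share a scale. A score was therefore written as its percentile, the share of regions in the same list with a lower score, and a percentile is a rank and not an amount of open chromatin. TPA replicate 2 stood apart by 998 calls wider than 10 kb, against 29 to 157 in the other lists. A list for basal mammary epithelium held 8 genes, among them CDH1, which is a general epithelial gene. ITGA6 and ITGB4 had an open promoter in all 6 libraries and TP63 at its annotated gene start had one in none. KRT5, KRT17 and EGFR had one in 5, KRT14 in 4 and CDH1 in 3. Among 5 luminal genes, FOXA1, KRT8 and KRT18 were open in all 6 and ESR1 and GATA3 in none. The promoters of 7 genes of blood, liver, nerve, muscle and endothelium were closed in every list. All marker promoters were taken at the annotated gene start, and other transcript starts of these genes were not examined.

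The stretch was poor in genes and rich in open regions. It held 4 protein-coding genes (TRIB1, LRATD2, POU5F1B and MYC), or 1.06 per Mb against 4.95 per Mb on the rest of chromosome 8, while the GC content of its sequence, 40.7%, was close to the 40.1% of the rest. The number of open regions in it was 106 and 124 with TPA, 79 and 111 in Ctrl, and 101 and 60 with ZnCl2. Per Mb, this was 28.2 and 33.0 regions with TPA, 21.0 and 29.5 in Ctrl, and 26.9 and 16.0 with ZnCl2, against 6.86 to 16.2 on the rest of the chromosome. The density was higher than on the rest of chromosome 8 in 6 of 6 libraries, with ratios of 2.13 and 2.13 for TPA, 2.33 and 1.82 for Ctrl, and 2.06 and 2.33 for ZnCl2. On the log2 scale the ratio was 1.09 ± 0.13 (SD, n = 6), with P = 0.03125 in a two-sided exact sign-flip permutation test, the smallest value that 6 libraries allow.

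The surroundings of the stretch were not uniform. The 10 Mb before TRIB1 held 12.8 to 30.2 regions per Mb and the 10 Mb after the end held 8.8 to 18.0, and against both together the log2 density ratio was 0.50 ± 0.11 (n = 6). The excess was thus smaller against the flanks than against the whole chromosome. The 10 Mb before TRIB1 alone came close to the stretch, with 25.2 and 29.3 regions per Mb with TPA, 18.1 and 30.2 in Ctrl, and 23.6 and 12.8 with ZnCl2. The stretch held 28.2 and 33.0, 21.0 and 29.5, and 26.9 and 16.0. In Ctrl replicate 2 the left flank was the denser of the pair. A high density was therefore shared with the sequence before TRIB1. With regions that lay over 1000 bp from every annotated transcript start, called distal here, the ratio to the rest of the chromosome was 1.38 ± 0.23 on the log2 scale. Distal regions made up 71.7% to 79.0% of the regions in the stretch and 50.7% to 69.2% of those elsewhere on chromosome 8.

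Of the 121 merged regions, 60 were intronic, 27 intergenic, 22 overlapped an exon and 12 a promoter, taken as the 1000 bp upstream of a gene start. The median distance to the nearest transcript start was 9156 bp, and 59 regions lay over 10 kb away. In all 6 libraries 53 regions were open, or 43.8%, against 32.8% of the merged regions on the rest of the chromosome, and 12 regions were open in 1 library. Motifs were sought only in the 500 bp around the center of each merged region. The consensus of AP-1 factors, TGANTCA, reads the same on both strands. It was in this window of 62 regions, or 51.2%, against 42.2% on the rest of chromosome 8 and 37.4% of all merged regions. Among distal regions the shares were 55.2%, 52.1% and 49.3%, a smaller gap. The E-box CACGTG, bound by MYC with MAX, is also the same on both strands. It was in the central window of 8.26% of the regions against 7.30% of all merged regions. A match shows only that the letters are present, and motifs outside the window were not counted.

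**Figure D1:**
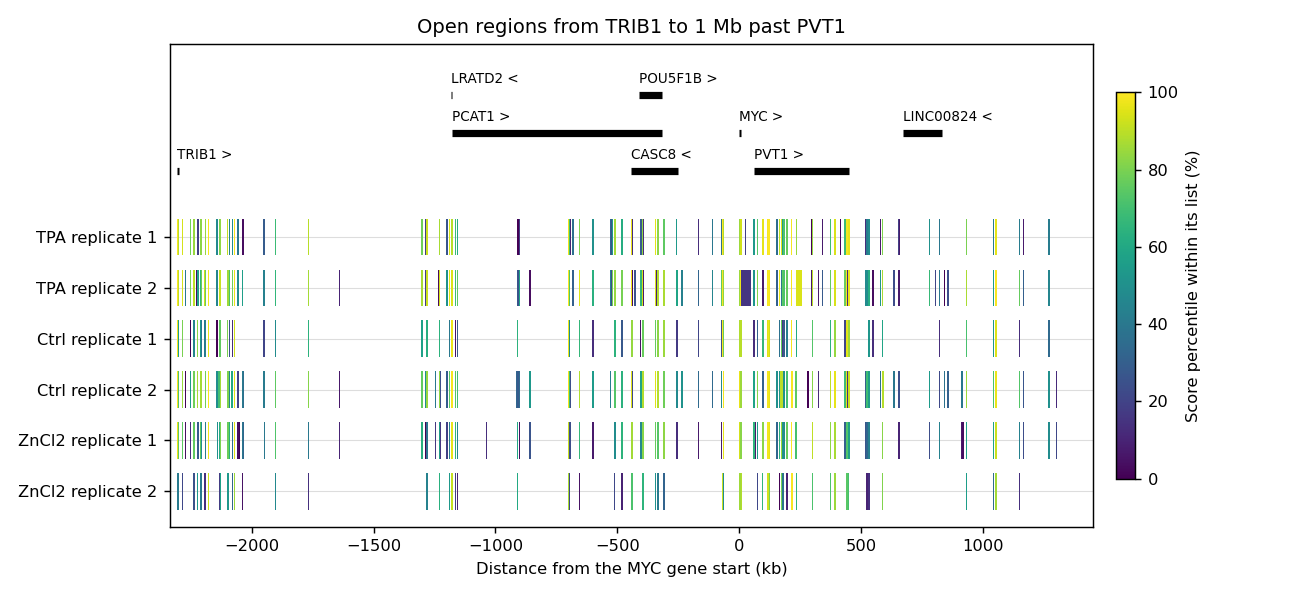
Open regions of each library (rows) by distance from the MYC gene start in kb, colored by score percentile within the list, with calls narrower than 6 kb drawn at that width; black bars are genes and > or < give their strand. Calls cluster next to TRIB1, at LRATD2 and through MYC and PVT1, and they thin out before LRATD2 and past PVT1.

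TRIB1 had the highest-ranking promoter of the 4 members. The region at its start, chr8:125428761-125436140 after merging, was open in every library with percentiles of 99.1 and 99.5 with TPA, 98.4 and 98.9 in Ctrl, and 96.9 and 94.8 with ZnCl2. The order of the conditions was TPA above Ctrl above ZnCl2 and the groups did not overlap. The gaps were small, since the mean with TPA was 0.64 percentile points above Ctrl and the mean with ZnCl2 was lower than in Ctrl by a difference of -2.77 points. A promoter percentile above both Ctrl libraries with TPA was found for 10.7% of the 8004 protein-coding promoters open in every library, and one below both with ZnCl2 for 13.7%.

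The MYC promoter was open in all 6 libraries too, and its order was another. The call began between 127732521 and 127733891, which is 1.5 to 2.9 kb before the annotated gene start at 127735434, and it covered the start of the canonical transcript at 127736231 in every list. Its percentile was 85.3 and 85.4 with TPA, 88.2 and 96.3 in Ctrl, and 93.3 and 85.7 with ZnCl2. The TPA libraries were thus the lowest, although the lower ZnCl2 library stood only 0.27 points above the higher TPA library. The TPA mean was lower than that of Ctrl by a difference of -6.92 points (exact permutation P = 0.333, the smallest value that 2 libraries against 2 allow), and ZnCl2 and Ctrl overlapped (difference of -2.81 points, exact permutation P = 0.667). Of the protein-coding promoters open in every library, 23.3% were lower with TPA than in both Ctrl libraries.

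List length mattered to the size of this gap. When each list was held to its 18887 highest-scoring regions, the MYC promoter ranked at 72.1 and 68.0 with TPA, 84.4 and 91.3 in Ctrl, and 86.4 and 85.7 with ZnCl2, and the difference between TPA and Ctrl became -17.8 points. The direction stayed and the groups did not overlap on that scale either. The width of the call did not follow the conditions: it was 6610 and 3120 bp with TPA, 2830 and 8490 bp in Ctrl, and 6640 and 6460 bp with ZnCl2. The narrow calls of TPA replicate 2 and Ctrl replicate 1 ended inside the first part of MYC and did not reach the promoter of CASC11, a long non-coding RNA gene read in the opposite direction, whose promoter was open in the other 4 libraries.

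A second region marked the 3′ end of MYC. The merged region chr8:127741411-127744190 overlapped the last exon and the end of the gene, and its percentile was 92.8 and 97.2 with TPA, 89.3 and 85.4 in Ctrl, and 82.1 and 88.6 with ZnCl2. Here TPA was the highest group and lay above every other library, while ZnCl2 and Ctrl overlapped. With an equal number of regions per list, TPA (86.3 and 93.9) stayed above Ctrl (85.9 and 65.4) but overlapped ZnCl2 (64.0 and 88.6). The ends of the same 7.5-kb gene were therefore ordered in opposite ways between TPA and Ctrl.

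The start of PVT1, 51.6 kb past the end of MYC, was a weaker region. The call at the PVT1 promoter, which also covers the promoter of the microRNA gene MIR1204, had percentiles of 53.7 and 51.8 with TPA, 13.1 and 58.0 in Ctrl, and 64.8 with ZnCl2 replicate 1, and ZnCl2 replicate 2 had no call there. The conditions overlapped. In Ctrl replicate 1 the PVT1 promoter ranked near the bottom of the list and in every library with a call it ranked under the MYC promoter.

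**Figure D2:**
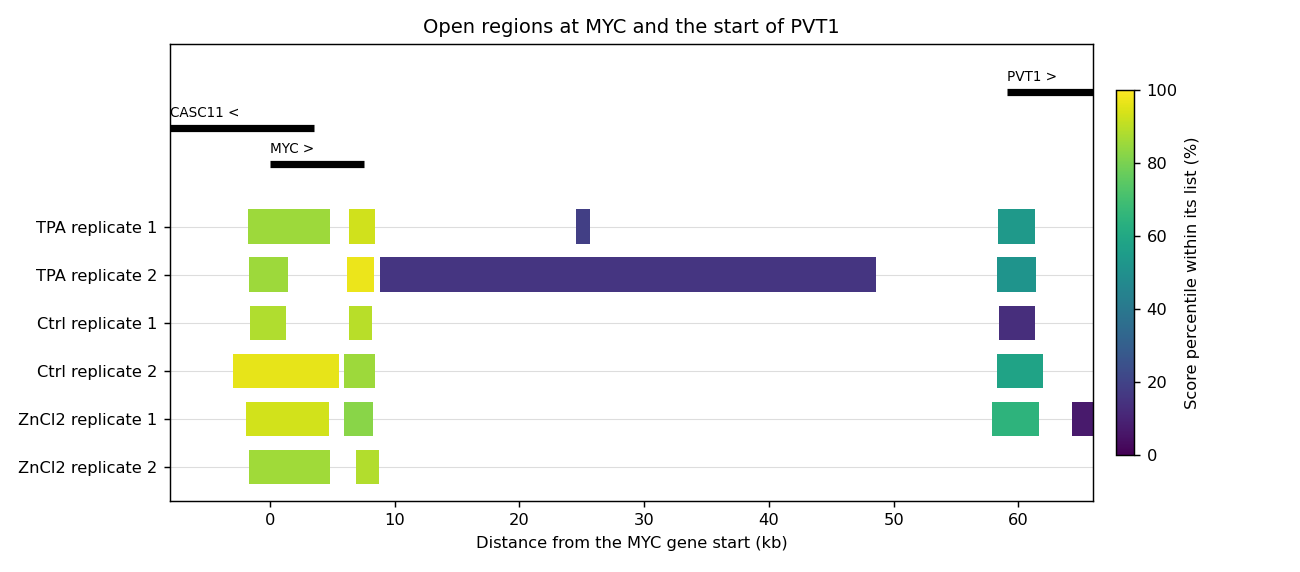
Calls of each library (rows) between 8 kb before and 66 kb after the MYC gene start, drawn to scale and colored by score percentile within the list; black bars are genes. The 5′ and 3′ calls at MYC were in every library, and the gap before PVT1 held a 39760-bp call in TPA replicate 2 and a 1090-bp call in TPA replicate 1.

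Between MYC and PVT1 the libraries differed by the presence of calls. TPA replicate 1 held a call of 1090 bp at chr8:127760011-127761100 with a percentile of 18.6. TPA replicate 2 held a call of 39760 bp at chr8:127744261-127784020 with a percentile of 15.5. No Ctrl or ZnCl2 library had a call there, so the merged region counted as gained with TPA, but it rested on calls of very unequal width and low rank. Open calls covered 80.4% of this gap in TPA replicate 2 and 2.40% to 5.34% in the other libraries. The 39760-bp call lay wholly inside this gap of 51.6 kb, so this single call made up most of the covered share in TPA replicate 2. Why that list held so many wide calls was not tested.

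POU5F1B had no open promoter in any library, either at the annotated gene start (127322183) or at the start of the canonical transcript (127415867). Regions inside the 97.9 kb of its annotated gene were open nonetheless. Its body overlaps the long non-coding RNA genes PCAT1 and CASC8, and it held 6 and 7 calls with TPA, 4 and 5 in Ctrl, and 4 and 3 with ZnCl2. The region at chr8:127389891-127392590 had percentiles of 95.5 and 94.1 with TPA, 76.6 and 94.6 in Ctrl, and 76.3 and 51.1 with ZnCl2. ZnCl2 was below Ctrl there and TPA overlapped Ctrl. Reads from the retrocopy and from POU5F1 can be alike, so a call or its absence over the copied sequence is uncertain. The promoter at the annotated gene start of POU5F1 was closed in every library as well, and its other transcript starts were not examined.

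LRATD2 was the other protein-coding gene of the stretch, and it shared 1 open region with the start of PCAT1, which is read in the opposite direction. The percentile of that region was 88.9 and 94.4 with TPA, 97.1 and 98.8 in Ctrl, and 96.1 and 91.1 with ZnCl2. TPA and ZnCl2 were both below Ctrl. The MYC and LRATD2 promoters were the only 2 of the 53 regions open in every library, or 3.77%, that were lower in both TPA libraries than in both Ctrl libraries, against 15.8% of all merged regions open in every library. Most of the 53 were distal, and lower values with TPA were rarer in distal regions. Among members that were not distal the share was 2 of 17 (11.8%), against 21.6% of all regions that were not distal.

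Of the long non-coding RNA genes, LINC02912, which starts inside PVT1, had a promoter region of high rank in every list, with 98.7 and 98.7 for TPA, 98.3 and 99.2 for Ctrl, and 99.4 and 99.1 for ZnCl2. ZnCl2 lay above TPA there and overlapped Ctrl, and with an equal number of regions per list it lay above both. The promoter of ENSG00000253530 stood at 86.9 and 93.1 with TPA, 64.4 and 83.3 in Ctrl, and 55.0 and 63.6 with ZnCl2, the order of the conditions seen at TRIB1, although ZnCl2 (9.39 and 63.6) overlapped Ctrl (52.9 and 60.6) with an equal number of regions per list. The calls over the promoters of ENSG00000286010 (48.9 to 98.1) and ENSG00000286034 (58.9 to 88.7) were found in every library and their conditions overlapped. The merged region that holds the ENSG00000286010 promoter took in a second, higher call in 4 libraries, and by the highest call it stood at 99.5 and 98.9 with TPA, 98.7 and 98.1 in Ctrl, and 96.4 and 91.4 with ZnCl2, without overlap. ENSG00000278324 was open in 4 libraries, CCAT2 in 3 and MIR1208 in 1. In all, 14 of the 47 genes had an open promoter in at least 1 library. The matching share of all annotated genes is not given, so this count cannot be set against the genome. The number per library did not differ between conditions beyond the spread (TPA minus Ctrl 1.5 genes, exact permutation P = 0.667).

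**Figure D3:**
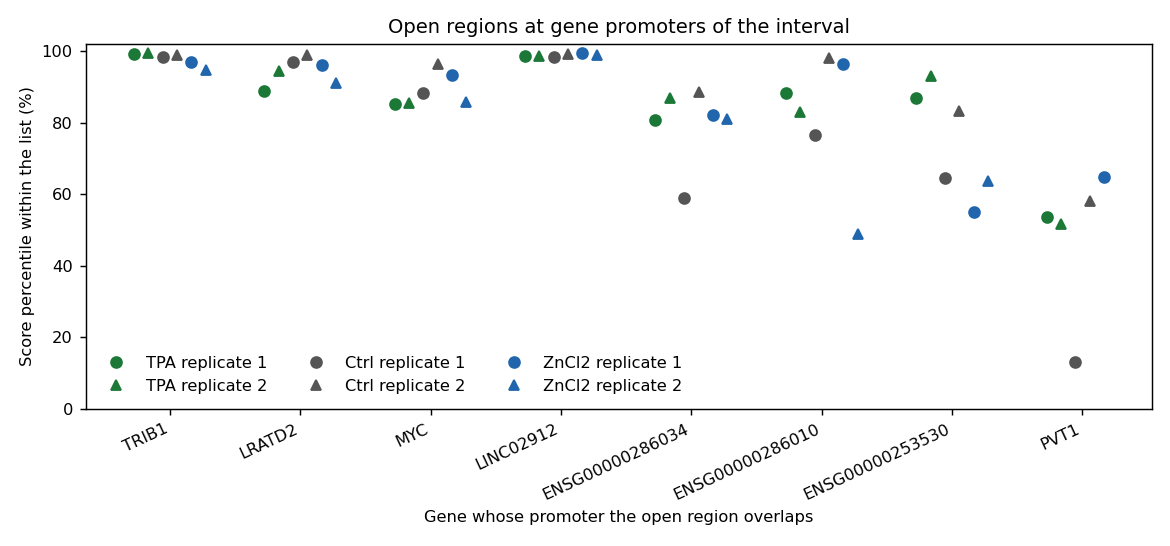
Score percentile within the list of the open region over the promoter of 8 genes in each library; colors are conditions, circles replicate 1 and triangles replicate 2, and no point is drawn where a library had no call. TPA was highest at TRIB1 and ENSG00000253530 and lowest at MYC, and the PVT1 promoter ranked under those of TRIB1, LRATD2 and MYC in every library with a call.

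The body of PVT1 carried a dense run of open regions. Its 392.6 kb held 24 and 27 calls with TPA, 20 and 23 in Ctrl, and 21 and 15 with ZnCl2, and these covered 8.52% to 19.4% of the gene. The 1 Mb past PVT1 held 7 to 20 calls and they covered 0.749% to 2.91% of it. The median percentile of the calls in PVT1 was 84.4 and 81.7 with TPA, 69.7 and 81.7 in Ctrl, and 73.0 and 71.8 with ZnCl2, so that TPA was above ZnCl2 in both libraries and the difference from Ctrl was 7.36 points (exact permutation P = 0.333).

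The 5 merged regions with the highest mean percentile among those open in every library were spread over the stretch. The first was the LINC02912 promoter (mean 98.9), which lies 216 kb past the MYC start, and the TRIB1 promoter followed (97.9). The third lay over an exon of PVT1 at chr8:127849601-127856150, with 99.7 and 99.5 for TPA, 97.4 and 98.1 for Ctrl, and 98.3 and 92.8 for ZnCl2. The region with the ENSG00000286010 promoter, 66 kb before MYC, had a mean of 97.2, and an intergenic region at chr8:125555881-125559610, 119 kb past TRIB1, had 97.0. In 4 of these 5 regions TPA was above both ZnCl2 libraries, and at LINC02912 it was below. Among regions open in every library, TPA was above ZnCl2 in 77.4% of the 53 in the stretch and 37.5% of all.

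The widest merged regions were set by 1 library or by the joining of neighbors. After the gap between MYC and PVT1, the next in width was chr8:127965421-127992020 in PVT1, with 26600 bp, of which the call of TPA replicate 2 made 23730 bp and those of the other libraries 2210 to 6900 bp. Its percentile was 84.7 and 94.4 with TPA, 60.8 and 75.3 in Ctrl, and 70.9 and 65.1 with ZnCl2. TPA was the highest group there.

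Taken over all its calls, the median rank of the stretch was highest with TPA and lowest with ZnCl2. The median percentile of all its calls was 70.7 and 74.7 with TPA, 62.6 and 68.2 in Ctrl, and 53.8 and 52.1 with ZnCl2, while the median on the rest of chromosome 8 stayed between 51.0 and 52.4. The 3 conditions did not overlap. TPA exceeded Ctrl by 7.30 points and ZnCl2 by 19.8 points, ZnCl2 differed from Ctrl by -12.5 points, and each comparison had an exact permutation P of 0.333, the smallest that 2 libraries against 2 allow. These comparisons share libraries.

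Regions in the stretch ranked above those on the rest of the chromosome in 6 of 6 libraries, by 12.1 ± 9.01 points (n = 6, exact sign-flip permutation P = 0.03125). The difference ran from 1.06 points in ZnCl2 replicate 2 to 22.9 in TPA replicate 2. With an equal number of regions per list it was 8.14 points and was above 0 in 5 of 6 libraries (exact permutation P = 0.0625). The share of regions at or above the 90th percentile of their list was 24.5% and 25.8% with TPA, 15.2% and 17.1% in Ctrl, and 11.9% and 10.0% with ZnCl2, against 11.7% to 13.6% on the rest of chromosome 8.

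The same order was found in distal regions alone. Their median percentile was 64.6 and 65.9 with TPA, 52.4 and 54.6 in Ctrl, and 46.8 and 43.9 with ZnCl2, and in distal regions of the rest of chromosome 8 it was 45.1 and 45.4, 37.1 and 41.2, and 40.2 and 38.5. The excess over the rest of the chromosome was 19.4 and 20.5 points with TPA, 15.3 and 13.4 in Ctrl, and 6.56 and 5.42 with ZnCl2 (exact permutation P = 0.333 for each pair of conditions). The conditions did not overlap. With an equal number of regions per list, TPA stayed above Ctrl by 7.94 points, but ZnCl2 and Ctrl overlapped (difference of -4.59 points, exact permutation P = 0.667).

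**Figure D4:**
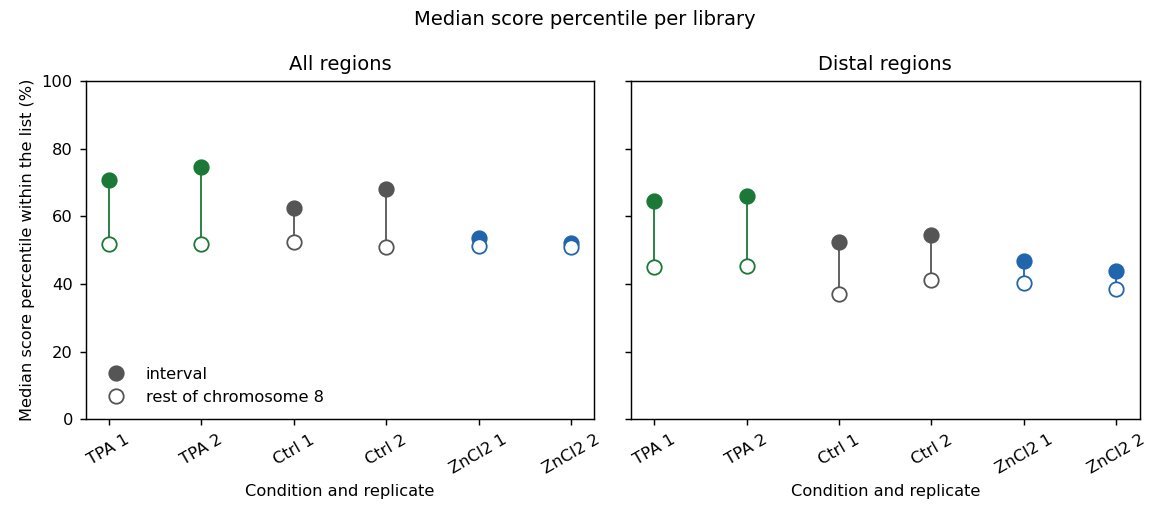
Median score percentile of open regions in each library, for the stretch from TRIB1 to 1 Mb past PVT1 (filled circles) and the rest of chromosome 8 (open circles); the left panel holds all regions and the right panel distal regions. The filled circles fall from TPA to Ctrl to ZnCl2 in both panels, and the gap to the open circles is smallest with ZnCl2.

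Region by region, 26 of the 53 regions open in every library, or 49.1%, had a higher percentile in both TPA libraries than in both Ctrl libraries, against 22.9% of all 15852 such regions in the genome. Genome-wide, distal regions were more often higher than lower with TPA, while protein-coding promoters were more often lower (10.7% higher and 23.3% lower). The distal members are therefore better compared with other distal regions. Of these members 17 of 36, or 47.2%, were higher with TPA, against 36.5% of all distal regions and 41.2% of those on the rest of chromosome 8. None was lower (0, against 5.43% of all distal regions). The median difference was 9.20 points for the distal members and 8.19 points for all distal regions. The members thus stood close to other distal regions in this comparison. Without Ctrl replicate 2 the count of 26 became 48, and without TPA replicate 1 it became 40, in each case with the lone library standing for its condition. Such a count can only stay or rise when a library is left out. The matching share of all regions is not given, so these counts cannot be set against the genome.

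With ZnCl2, 19 of 53 regions (35.8%) were below both Ctrl libraries, against 17.6% of all regions open in every library, and 0 of 53 were above both, against 2.47%. Among distal members 12 of 36 (33.3%) were lower, against 23.7% of all distal regions and 27.8% of those on the rest of the chromosome, and 0 were higher, against 1.84%. The median difference of the distal members was -13.3 points, against -8.85 points for all distal regions. Between the treatments, 41 of 53 (77.4%) were higher with TPA than with ZnCl2, against 37.5% of all such regions, and 2 of 53 (3.77%), the MYC and LINC02912 promoters, were lower, against 12.5%. For distal regions the shares higher with TPA were 77.8% in the stretch, 65.9% on the rest of chromosome 8 and 58% over the genome, and 0 distal members were lower, against 4.75%. These counts hold no test. Without Ctrl replicate 1 the count of 19 became 45 and without ZnCl2 replicate 1 it became 42, again without a matching share of all regions.

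With an equal number of regions per list, 42 merged regions of the stretch were open in every library. Of these, 21 (50.0%) were higher with TPA than Ctrl against 26% of all such regions, 19 (45.2%) were lower with ZnCl2 than Ctrl against 23.1%, and 30 (71.4%) were higher with TPA than ZnCl2 against 32.3%. On the rest of chromosome 8 these shares were 34.0%, 29.7% and 43.1%. Distal members alone, examined on this scale after the data were seen, gave 13 of 25 (52%), 11 of 25 (44%) and 18 of 25 (72%), against 48.5%, 36% and 59.8% of distal regions on the rest of the chromosome and 43.3%, 30.7% and 54.5% of all distal regions. The gaps were again smaller among distal regions.

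The full order, with both TPA libraries above both Ctrl libraries and these above both ZnCl2 libraries, was kept by 10 of 53 regions, or 18.9%, against 9.09% on the rest of chromosome 8 and 5.84% of all regions open in every library. Among distal regions it was kept by 6 of 36 (16.7%), against 13.6% on the rest of the chromosome and 11.1% over the genome, a smaller gap. The reverse order was kept by 0 regions, against 0.656%. Besides the TRIB1 and ENSG00000253530 promoters and the merged region at the ENSG00000286010 promoter, they included an intron of LINC02964 at chr8:125968271-125969770, which stood at 89.3 and 86.5 with TPA, 64.4 and 81.7 in Ctrl, and 40.2 and 13.9 with ZnCl2. An intergenic region before LRATD2, chr8:126453001-126455110, stood at 91.8 and 92.0, 62.6 and 84.5, and 38.4 and 43.9. A region near the end of PVT1, chr8:128174641-128178920, stood at 98.3 and 99.0, 95.6 and 95.9, and 73.0 and 74.0, although with an equal number of regions per list the ZnCl2 libraries stood further apart, at 45.6 and 74.0. On that scale ZnCl2 replicate 1 had no call in the LINC02964 intron or in the region before LRATD2. These 3 regions were chosen after their values were seen.

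**Figure D5:**
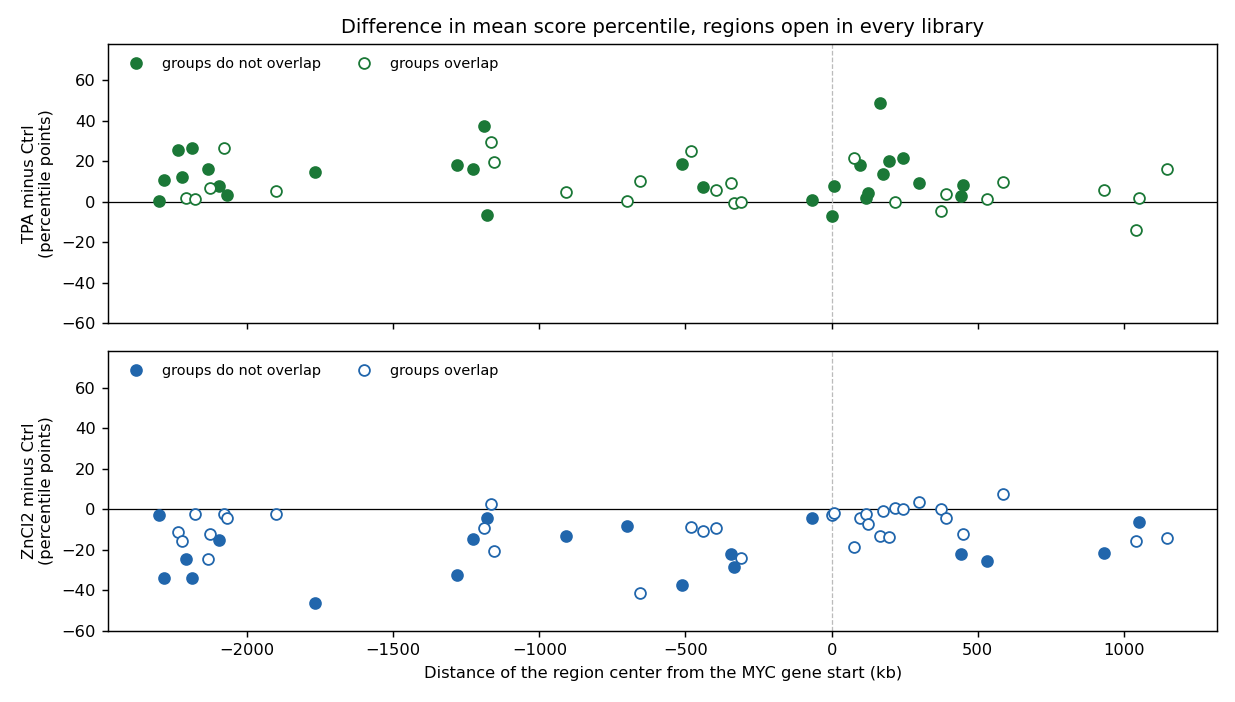
Difference between condition means in score percentile (percentile points) for the 53 regions open in every library, by distance from the MYC gene start in kb; filled points mark regions whose libraries do not overlap between the conditions. Most points lie above 0 for TPA minus Ctrl and below 0 for ZnCl2 minus Ctrl, along the whole stretch, and the MYC promoter at distance 0 is below 0 in both.

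The largest rise with TPA was inside PVT1, at chr8:127897911-127902170, 165 kb past the MYC start. Its percentile was 90.4 and 97.0 with TPA, 37.1 and 52.3 in Ctrl, and 62.9 and 0.0 with ZnCl2, where 0.0 means that no region of that list scored lower. The TPA mean was 49.0 points above that of Ctrl, and the ZnCl2 libraries lay on both sides of Ctrl. The largest difference with ZnCl2 was the intron of LINC02964 given above (-46.0 points). Both rankings hold for lists of full length, since with an equal number of regions per list Ctrl replicate 2 had no call in the PVT1 region and ZnCl2 replicate 1 had none in the LINC02964 intron.

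The median percentile of the calls did not move alike in all segments of the stretch. From the start of TRIB1 to the end of LRATD2 the median percentile was 82.9 and 79.0 with TPA, 56.8 and 71.2 in Ctrl, and 46.8 and 43.9 with ZnCl2, with no overlap of the conditions and a difference of 16.9 points between TPA and Ctrl (exact permutation P = 0.333). Between LRATD2 and POU5F1B it was 62.1 and 71.0, 64.4 and 68.2, and 56.4 and 21.6, so TPA and Ctrl overlapped. Within the POU5F1B gene, with 3 to 7 calls per library, the TPA median was the lower, at 64.9 and 65.9 against 76.6 and 88.4 in Ctrl (difference of -17.1 points, exact permutation P = 0.333). ZnCl2 stood at 75.0 and 51.1. The TPA libraries had more calls there than Ctrl, some of low rank, such as 13.1 in TPA replicate 1 and 6.7 in TPA replicate 2. In each region there that was open in every library, TPA and Ctrl overlapped. The gap between MYC and PVT1 had 1 to 3 calls overlapping it. The median was 53.7 and 51.8 with TPA, 51.2 and 71.7 in Ctrl, and 73.5 and 88.6 with ZnCl2, the highest group. The Ctrl and ZnCl2 calls there were those reaching in from the MYC 3′ end and, where called, the PVT1 promoter. ZnCl2 replicate 2 had only the call at MYC, and each TPA library had a further call of low rank (18.6 and 15.5). The medians thus followed which calls were present. At the MYC 3′ region itself TPA ranked highest in lists of full length. Between POU5F1B and MYC the conditions overlapped in every pair (TPA minus ZnCl2 12.4 points, exact permutation P = 0.667). In the 1 Mb past PVT1 the median was 41.5 and 46.2 with TPA, 52.4 and 44.6 in Ctrl, and 38.0 and 35.2 with ZnCl2, where TPA and Ctrl overlapped.

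Few regions opened or closed outright. With TPA, 5 of 121 merged regions were open in both treated libraries and in neither Ctrl library (4.13%, against 2.04% of all merged regions), and 0 were lost (against 0.703%). Apart from the gap between MYC and PVT1, these were an intron of PCAT1 (chr8:127052371-127054200, 37.4 and 38.3 in the TPA libraries), a pair of introns shared by CASC19 and PCAT1 (chr8:127210181-127210950, 26.3 and 23.3, and chr8:127214871-127217200, 53.7 and 78.2) and an intron of PVT1 (chr8:128076271-128078090, 6.8 and 27.9). CASC19 and PCAT1 are long non-coding RNA genes upstream of MYC. The intron at 53.7 and 78.2 was the only one of these 5 that ranked in the upper part of its lists. Lists of equal length again gave 5 gained regions, but that intron was the only one in both sets. The other 4 regions named here had no call left in any library, and the 4 new ones had a Ctrl call in the lists of full length. Without Ctrl replicate 2 the gained regions numbered 23, without TPA replicate 1 they numbered 10, and without Ctrl replicate 1 the lost regions numbered 7. The share of all regions in these settings is not given, so the counts cannot be set against the genome.

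With ZnCl2, 0 regions were gained (against 0.172% of all merged regions) and 1 was lost, 0.826% against 1.73%. The lost region was chr8:127329011-127331560, in an intron of POU5F1B, CASC8 and PCAT1, where Ctrl had 4.6 and 49.7 and TPA had 46.9 and 48.7. Between the treatments, 12 regions were open in both TPA libraries and in neither ZnCl2 library (9.92%, against 9.73%), and 0 the reverse (against 0.991%). This share was close to that of the genome as a whole. Without Ctrl replicate 1 or ZnCl2 replicate 1 the regions lost with ZnCl2 numbered 17 and 14, and without ZnCl2 replicate 1 those open with TPA and not with ZnCl2 numbered 35. These counts too lack a matching share of all regions. The ZnCl2 libraries differed in length, with 38069 and 18887 regions, and ZnCl2 replicate 2 lacked a call in 53.7% of the merged regions of the stretch.

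The density ratio and the covered share overlapped between the conditions, and the number of calls was higher with TPA than with ZnCl2 in both libraries (34.5 calls, exact permutation P = 0.333, the smallest possible). TPA and Ctrl differed by 20 calls and by 0.054 in the density ratio, and ZnCl2 and Ctrl by -14.5 calls and by 0.12 (exact permutation P between 0.667 and 1 for these comparisons with Ctrl). Open calls covered 3.99% and 5.71% of the stretch with TPA, 2.89% and 6.70% in Ctrl, and 4.35% and 3.81% with ZnCl2. Without its 2 calls over 10 kb the share of TPA replicate 2 was 4.02%, and TPA minus Ctrl then changed sign, from 0.055 to -0.79 percentage points. The median width of a call was 1125 and 1090 bp with TPA, 1130 and 1750 bp in Ctrl, and 1290 and 1880 bp with ZnCl2.

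Of the 12 other genes of the MYC and MAX network, 8 had an open promoter in every library (MYCL, MAX, MXI1, MXD3, MXD4, MNT, MLXIP and MLXIPL). MLX had one in 4 libraries, and MYCN, MXD1 and MGA had none at the annotated gene start. Other transcript starts of the network genes were not examined, so a promoter used from another start may have been missed. Of all 20033 protein-coding genes, 8004 (40.0%) had an open promoter in every library. MAX, the partner that MYC needs to bind DNA, stood at 75.1 and 77.4 with TPA, 81.7 and 84.5 in Ctrl, and 92.9 and 82.6 with ZnCl2. TPA was the lowest group there, as at MYC and at MYCL (53.7 and 51.8, 58.9 and 79.6, and 71.7 and 60.5). MNT, a repressor that competes for MAX, stood at 87.4 and 85.9, 97.2 and 95.4, and 94.1 and 78.7, with TPA below Ctrl and ZnCl2 on both sides of TPA. MLXIP was below Ctrl with TPA too (75.1 and 75.6 against 85.6 and 82.1), while TPA and Ctrl overlapped at MXI1, MXD3, MXD4 and MLXIPL. A lower percentile with TPA than in both Ctrl libraries was found for 23.3% of all protein-coding promoters open in every library, so this order was common. MXD4, another repressor of the network, was high throughout (97.6 to 99.1). Of the tribbles family, TRIB3 was open in every library (28.7 to 59.9) and TRIB2 in 5 (0.0 to 32.5), far under TRIB1.

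By the mean absolute difference in promoter percentile over the 6 libraries, the protein-coding genes elsewhere that were most like MYC were CYB561D2 and NPRL2, which share 1 open region with ENSG00000272104 on chromosome 3 (0.857 points), and KIAA1328 and TPGS2, which share 1 on chromosome 18 (0.871 points). The CYB561D2 region stood at 85.3 and 87.4 with TPA, 90.8 and 96.7 in Ctrl, and 93.4 and 85.7 with ZnCl2. With 8004 promoters to choose from, likeness over 6 values is a description only.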

How the data were processed

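ATAC-seq libraries of MCF10A cells (3 conditions, 2 libraries each) were trimmed by the authors with BBDuk and mapped to hg38 with HISAT2 2.1.0. SAMtools 1.8 and FastQC 0.11.8 are also named in the submitters' processing notes. Open regions were called by HMMRATAC in each library separately, and its version is not given in the sources used here. Runs of the same library had been pooled before calling. The deposited lists hold positions and a score per region (whole numbers of at least 30), and the kind of score is not stated. The authors' later merging, blacklist and DESeq2 steps were not repeated here. Depth is unknown, since read counts were not analysed here, and no interval that needs them is given.

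Calls outside the autosomes, X and Y were left out. Gene models were GENCODE release 44, and promoters the 1000 bp before each gene start. Overlap meant at least 1 bp, and calls that overlapped or touched were merged. Where several calls of a library fell in 1 region, the highest percentile was used. Gained regions were open in both libraries of the first condition and in neither of the second, and lost regions the reverse. Conditions were compared with two-sided exact permutation tests over libraries. Named were the 4 members, every other gene of the stretch with an open promoter, regions at the members' starts and ends, the 5 highest-ranking and the widest regions, gained and lost regions (those of TPA against ZnCl2 as a count) and the 5 genes most like MYC. Members and lists were chosen with earlier results of these data known. A further gene of the basal marker list is not reported here. Overlaps and tests were checked on simulated data, with bedtools 2.31.1 and SciPy 1.17.1 (Python 3.11.15, NumPy 2.4.6, pandas 2.3.3, Matplotlib 3.10.9). Alternatives were list length, region center, background, promoter definition, overlap, each library left out and replicate pairing.

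Replicate numbers came from the labels. Over the 15852 regions open in all 6 libraries, the deviations of libraries with the same number correlated at 0.16 between TPA and Ctrl, -0.33 between ZnCl2 and Ctrl and -0.058 between TPA and ZnCl2, so the numbers were not taken to pair the libraries.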

Additional observations from a re-analysis of the deposited data

How the results depend on the processing

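Of 284 alternative values, 197 kept their direction and their side of the threshold or stayed near the reported count, 46 moved, 14 lost the threshold and 27 changed direction. The order of the conditions in the median percentile of the stretch, and the lower MYC promoter with TPA, kept their direction under every alternative run that gave a value. Region centers gave no value for the MYC promoter. With 2 libraries against 2 no result could pass 0.05, so a kept side of the threshold says nothing of stability. Depth and copy number could not be set apart from accessibility, and the cause of the changes below was not tested.

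List length moved several comparisons. With an equal number of regions per list, the density ratio differed by -0.12 (ZnCl2 minus Ctrl) and 0.47 (TPA minus ZnCl2), covered share by -0.11 percentage points (TPA minus Ctrl) and open promoters by -1.0 (TPA minus ZnCl2). The excess of the median percentile over the rest of chromosome 8 was 8.14 points (P = 0.0625, exact permutation). Of 71 regions, 0 were lost with ZnCl2 (against 3.66% of all regions) and 6 were gained with TPA over ZnCl2 (8.45% against 7.8%). Of 42 open in every library, 5 were lower with TPA than Ctrl (11.9% against 24.2%). In the same set 3 were higher with ZnCl2 than Ctrl (7.14% against 20.4%) and 5 were lower with TPA than ZnCl2 (11.9% against 29.1%). With the upper 50% of each list the same values were -0.32 and 0.42 for the density ratio, -0.15 for the covered share and 6.37 points (P = 0.1875, exact permutation) for the excess, with 2 of 78 regions gained with TPA (2.56%, under the 3.47% of all regions), 3 of 78 lost with ZnCl2 (3.85% against 2.47%), and, of 30 open in every library, 16 higher with TPA than Ctrl (53.3% against 23%), 11 lower with ZnCl2 than Ctrl (36.7% against 19.6%) and 24 higher with TPA than ZnCl2 (80.0% against 34%). When at least 50% of a merged region had to be covered, TPA against Ctrl had 3 gained and 1 lost, ZnCl2 against Ctrl 1 and 0, and TPA against ZnCl2 5 and 2. No share of all regions is given for that setting. Distal regions alone gave a density ratio difference of -0.068 (TPA minus Ctrl), the genome as background 0.046 (TPA minus ZnCl2), and region centers -0.5 open promoters (ZnCl2 minus Ctrl). Leaving out calls over 10 kb, added after seeing the data, gave covered share differences of -0.79 (TPA minus Ctrl) and -0.077 (TPA minus ZnCl2) percentage points.

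With each library left out in turn, the values ran as follows. The number of calls (ZnCl2 minus Ctrl) ran from -35 to 6, the density ratio from -0.20 to 0.30 (TPA minus Ctrl), -0.13 to 0.37 (ZnCl2 minus Ctrl) and -0.20 to 0.072 (TPA minus ZnCl2), and the covered share from -1.85 to 1.96, -2.62 to 1.19 and -0.092 to 1.63 percentage points in the same comparisons. Open promoters ran from -1.0 to 2.0 (ZnCl2 minus Ctrl) and -0.5 to 2.5 (TPA minus ZnCl2), and the MYC promoter percentile (ZnCl2 minus Ctrl) from -6.86 to 1.24 points. Against the rest of chromosome 8, the log2 density ratio ran from 1.06 to 1.13 and the excess of the median percentile from 9.95 to 14.3 points, both at an exact permutation P of 0.0625, the smallest that 5 libraries allow. Gained and lost regions ran from 5 to 23 and 0 to 7 (TPA against Ctrl), 0 to 4 and 2 to 17 (ZnCl2 against Ctrl), and 13 to 35 and 0 to 9 (TPA against ZnCl2). Regions with a higher percentile ran from 26 to 48 (TPA against Ctrl) and 0 to 10 (ZnCl2 against Ctrl), and those with a lower one from 2 to 11, 20 to 45 and 2 to 7 (TPA against ZnCl2).

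In the replicate block, which takes differences within a number, TPA against Ctrl had 18 gained and 4.5 lost on average, ZnCl2 against Ctrl 12.5 and 26, and TPA against ZnCl2 33 and 6, and the block changed no other call. Crossed numbers between ZnCl2 and Ctrl, added after seeing the data, gave 3 gained and 16.5 lost. Every library left out in turn leaves a lone library for its condition. The counts of regions from these runs and from the replicate block have no matching share of all regions, and cannot be set against the genome. For the counts of regions higher or lower in both libraries that alternative was added after seeing the data.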
